A study of Mus musculus with 4 samples.

Results

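The regions described here are the promoters of 2717 mouse protein-coding genes that carried a DNase I peak in the first of 2 biological replicates of acute myeloid leukemia (AML) cells and none in the second. They were selected from the deposited peak lists: each gene had at least 1 replicate 1 peak within 1 kb of an annotated transcription start and no replicate 2 peak in that window. They made up 12.5% of the 21755 protein-coding genes on the autosomes and X, and 17.6% of the 15477 promoters that had a replicate 1 peak. Their windows held 5497 of the 236109 replicate 1 peaks. Another 12760 genes (58.7%) had a peak in both lists, 22 in the replicate 2 list only, and 6256 (28.8%) in neither. Because the presence and absence of peaks chose these genes, that contrast and everything that moves with it is given as a description, with no test.

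The study measured open chromatin by DNase-seq, in which nuclei are cut with DNase I and the cut ends sequenced, so that accessible DNA stands out as clusters of cuts. It comprised 4 libraries of cells from C57BL/6J mice that the labels call AML and also in vitro differentiated, with 2 technical libraries in each biological replicate. All share 1 donor identifier, and the labels give neither a treatment nor an untreated control, an age, a sex, or a statement that the replicates were separate cultures. Each replicate had 1 peak list made from its pooled libraries, with 236109 peaks for replicate 1 and 67395 for replicate 2, so no spread between libraries could be measured, and depth and replicate cannot be told apart.

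Mammalian promoters fall broadly into CpG-rich ones, which serve housekeeping and many developmental genes, and CpG-poor ones, which often serve genes used in few cell types. CpG-rich promoters are commonly accessible in most tissues, whereas CpG-poor promoters tend to open where lineage transcription factors bind. In myeloid cells such factors include the ETS protein PU.1, RUNX1 and C/EBP proteins, and interferon regulatory factors (IRF) act at interferon-responsive genes.

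These 6 windows are examples with a motif match, from CpG-poor and CpG-rich promoters among the 2717 genes. Their peaks scored 85 to 135, above the median of 67 of the selected promoters, and peaks in exons or with no match are not shown. Each is the stretch outside annotated exons of the 150 bp window of the strongest replicate 1 peak, read from the RefSeq GRCm38.p6 sequence (mm10) on the strand of the gene, 5′ to 3′. Capitals mark matches to the motifs searched.
Havcr2, chr11:46454776-46454925, plus strand: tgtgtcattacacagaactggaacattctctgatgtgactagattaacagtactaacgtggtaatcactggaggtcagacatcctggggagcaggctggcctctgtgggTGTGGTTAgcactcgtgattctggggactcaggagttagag
Il7r, chr15:9529836-9529945, minus strand: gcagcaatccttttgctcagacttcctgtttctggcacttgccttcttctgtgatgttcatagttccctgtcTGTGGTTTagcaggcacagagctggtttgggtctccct
Eng, chr2:32646476-32646594, plus strand: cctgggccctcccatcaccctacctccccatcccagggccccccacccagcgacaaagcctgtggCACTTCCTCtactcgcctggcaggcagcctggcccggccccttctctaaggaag
Isg15, chr4:156200819-156200945, minus strand: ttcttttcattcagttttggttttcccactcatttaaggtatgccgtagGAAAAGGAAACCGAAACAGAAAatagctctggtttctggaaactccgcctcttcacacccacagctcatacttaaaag
Cdh1, chr8:106603236-106603350, plus strand: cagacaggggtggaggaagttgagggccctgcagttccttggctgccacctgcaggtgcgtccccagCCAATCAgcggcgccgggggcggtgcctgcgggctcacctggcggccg
Neurog2, chr3:127632676-127632825, plus strand: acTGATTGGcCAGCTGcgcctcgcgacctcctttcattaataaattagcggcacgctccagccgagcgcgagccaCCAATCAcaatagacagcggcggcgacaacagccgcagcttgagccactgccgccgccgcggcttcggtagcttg
Havcr2 encodes the immune receptor TIM-3 and Il7r the interleukin-7 receptor alpha chain, and both windows held a RUNX word, TGTGGTTA and TGTGGTTT. Eng, which encodes the TGF-beta co-receptor endoglin, held CACTTCCTC, the reverse complement of a PU.1-type word. Isg15, which encodes an interferon-induced ubiquitin-like protein, held 3 overlapping matches to the IRF word (GAAA, any 2 bases, GAAA). Cdh1, the gene of the epithelial adhesion protein E-cadherin, and Neurog2, a neuronal transcription factor gene, had CpG-rich sequence with NFY words (CCAATNA or CCAATNG), and Neurog2 also an E-box, CAGCTG. A match describes letters in the window, not a bound site.

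The selected promoters had lower replicate 1 peak scores than promoters open in both. The score is the signal value of each peak as the authors gave it, on a scale from 1 to 150 in replicate 1, with no stated scaling. The strongest peak of a selected promoter had a median score of 67 (interquartile range 50 to 88, range 20 to 146), against 145 (136 to 149) for promoters open in both. In the latter the 90th percentile was 150, the highest score in the list. Scores therefore pile up at the top, and equal scores there need not mean equal signal. A replicate 1 peak anywhere in the genome had a median score of 74. Only 413 of the 2717 (15.2%) reached 100, 35 reached 130 and 4 reached 140, whereas 94.6% of promoters open in both reached 100. Selected promoters also had fewer peaks, with a median of 2 against 3, and 1356 (49.9%) had exactly 1, against 14.5%. The hotspot (a broader enriched stretch called separately by the authors) under the strongest peak was 315 bp wide at the median, against 1456 bp. Hotspots carry a −log10 q value with a ceiling of 100. The strongest peak lay in a hotspot at that ceiling in 47.7% of selected promoters, against 99.2%. Genes named below with low values include Cd27 (1.61), Ttr (1.82) and Fpr1 (1.84).

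The share of promoters without a replicate 2 peak fell with the replicate 1 score. It was 96.1% (95% Wilson interval 92.9 to 97.9) of the 255 promoters whose strongest peak scored 30 to 39, 49.0% (44.6 to 53.5) at 90 to 99, 8.91% (7.24 to 10.9) at 120 to 129 and 0.0456% (0.0177 to 0.117) at 140 to 150. These intervals, like those below, cover counting error over genes or peaks only and not variation between cultures. When the replicate 1 list was cut by score to the 67395 peaks of the replicate 2 list, 386 of the 2717 (14.2%) still had a promoter peak, and the share of coding genes selected fell from 12.5% to 1.77%. A replicate 2 hotspot lay within 1 kb of a start in 33 of the 2717 promoters (1.21%).

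Replicate 2 peaks lay close to many of the selected genes although not in the window. The nearest one was 7765 bp from a start at the median, against 47064 bp for genes with no promoter peak in either list. In 515 genes it lay over 1 kb and up to 2.5 kb away. At the edge of the rule, 4 genes just inside had their nearest replicate 2 peak 1003 bp (Fam57b and Slc26a8) or 1010 bp (Dpep2nb and Npr2) from a start, and the 5 just outside between 994 bp (Fndc7 and Lect2) and 999 bp (9030612E09Rik). The strongest replicate 1 scores were 68 to 116 for these 4 and 61 to 132 outside.

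The 12 genes with the strongest peaks were of mixed function. Hist1h2af, a histone H2A gene, led with a score of 146, but its peak was centred 1045 bp past the start and downstream of this short gene, which belongs to a cluster of near-identical histone genes. N4bp2l1 scored 144, with its peak in an intron at an internal start, and the nearest replicate 2 peak was 53926 bp away. Thbd, the gene of the anticoagulant receptor thrombomodulin, scored 143, 43 bp upstream of its start, with the nearest replicate 2 peak 1108 bp away. Tspoap1 scored 142, Efcab9 and Mxra8 139, Naip2 (a sensor of bacterial proteins) 138 and Bace1 (the beta-secretase) 136. Bcor (a transcriptional corepressor), Cldn15 (a tight junction claudin), Havcr2 and Lst1 all scored 135. Several had a replicate 2 peak little beyond the 1 kb limit: 1015 bp from a start for Efcab9, 1059 bp for Mxra8, 1098 bp for Bace1 and 1350 bp for Hist1h2af. For Tspoap1, Naip2, Bcor, Cldn15, Havcr2 and Lst1 the nearest lay 2214 bp (Lst1) to 34708 bp (Bcor) away. In 7 of the 12 the strongest peak was centred over 700 bp from the nearest start, so these highest scores were not mainly at the start itself.

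The 10 genes with the most peaks in the window differed from these, and only Bace1 (10 peaks) was in both sets. Sema4a, a semaphorin gene, had 13 peaks with a top score of 129. Nbea and Auts2 had 12 each, Otx1, Arhgef25 and Npas3 10 each, and Cited1, Tbr1 and Gata6 9 each. Otx1, Npas3, Tbr1 and Gata6 encode developmental transcription factors, and their strongest peaks scored 115, 51, 93 and 67. A gene with many annotated starts has a larger total window, which raises the count of peaks it can hold.

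Several lists of myeloid and other blood lineage genes were examined. A gene's score is that of its strongest peak near any annotated start, not only the first. Genes below where that start was over 1 kb inside the gene include Ltf, Cybb, Cx3cr1, Cd163, Cd80, Cpa3, Gata1 and Hemgn. The same held for Cd28, Gata3, Cd3e, Selp, Pou5f1, Il12a and Wnt6. Genes below whose strongest peak was in a coding exon include Gata1, Pou5f1, Wnt6, Lcn2, Klf1, Eomes, Tbx2 and Dlx2. None of 18 myeloid transcription factor genes and none of 20 stem and progenitor regulator genes was selected: all 38 had a promoter peak in both lists, though with a 500 bp window 2 of the regulators were selected. The 16 stem and progenitor surface markers had 7 selected genes (43.8%, beside 12.5% of all coding genes). Cd34, a sialomucin of progenitors, scored 129, Cd93 115, Procr (the endothelial protein C receptor) 104, Eng 85, Thy1 79, Cd27 61 and Slamf1 (CD150) 59. The nearest replicate 2 peak was 2851 bp away for Cd27 and 48761 bp for Slamf1, with the others in between.

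Of 23 neutrophil granule genes found, 8 (34.8%) were selected while most, 14, had a peak in both lists. Elane (neutrophil elastase) scored 131 with its peak 24 bp past the start, and Lcn2 (an iron-siderophore-binding lipocalin) scored 129. Cd177, a neutrophil surface protein, scored 114, Ltf (lactoferrin) 110, Cxcr2 (a chemokine receptor) 100, Cybb (the catalytic subunit of the phagocyte oxidase) 100, Padi4 (a histone-citrullinating enzyme) 97 and Fpr1 (a formyl peptide receptor) 63. The nearest replicate 2 peak lay 1479 bp from a Padi4 start, 1565 bp from Cxcr2, 1652 bp from Cybb and 2322 bp from Elane. With a window of 2.5 kb the count in this list dropped to 4, since such flanking peaks then fall inside it.

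Monocyte and macrophage genes had 6 of 24 selected and 16 open in both. Cx3cr1, the fractalkine receptor, scored 130 and the scavenger receptor gene Cd163 103. Msr1 and Marco, also scavenger receptors, scored 79 and 75, and the complement genes C1qb and C1qa 62 and 60. Of 17 dendritic cell genes 3 were selected (17.6%), namely Cd80 (117), Siglech (71) and Cd209a (44). The mast cell, basophil and eosinophil list had 7 of 15 (46.7%). It was led by Mcpt8, a basophil protease, at 120, Siglecf at 119 and Cpa3, a mast cell carboxypeptidase, at 114. Gata1 (100), Hemgn (76) and Klf1 (54) were the 3 of 15 erythroid genes, and of these Gata1 and Klf1 encode lineage transcription factors. The only Klf1 peak was in a coding exon, in a hotspot 68 bp wide with a −log10 q of 1.42.

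Lymphoid genes were among the selected promoters too. There were 6 of 16 B cell genes (37.5%), led by Cd79b at 112 and Rag2 at 85. T cell genes had 5 of 18 (27.8%), namely Cd28 (124), Cd2 (120), Il7r (120), Gata3 (101) and Cd3e (48). The NK cell list had 4 of 12 (33.3%), with Eomes at 99 and Klrb1c at 98. Lists for tissues outside blood also had selected genes, at lower top scores: 4 of 13 endothelial genes reached at most 70, 6 of 15 fibroblast and stromal genes 79, 4 of 15 epithelial genes 92, 3 of 18 neuronal genes 60 (7 genes with a 500 bp window, 1 with 2.5 kb) and 4 of 15 muscle genes 78. The fibroblast and stromal gene at 79 was Thy1, also counted above as a surface marker, and the next was Twist2 at 70. Of 14 megakaryocyte and platelet genes 6 were selected (42.9%), led by Selp (P-selectin) at 97 (3 genes with a 2.5 kb window). Embryonic stem cell and germ line genes had 6 of 16 (37.5%), led by Pou5f1 at 94. Of 15 hepatocyte genes only Ttr was selected (6.67%), at 51 (none with 500 bp, 3 with 2.5 kb). In all, 19 of the 25 lists had a share above the 12.5% of all coding genes. None of 18 housekeeping genes was selected, and among gene families 1 of 83 cytosolic ribosomal protein genes, 1 of 46 NADH dehydrogenase subunit genes and none of 40 proteasome subunit genes.

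**Figure D1:**
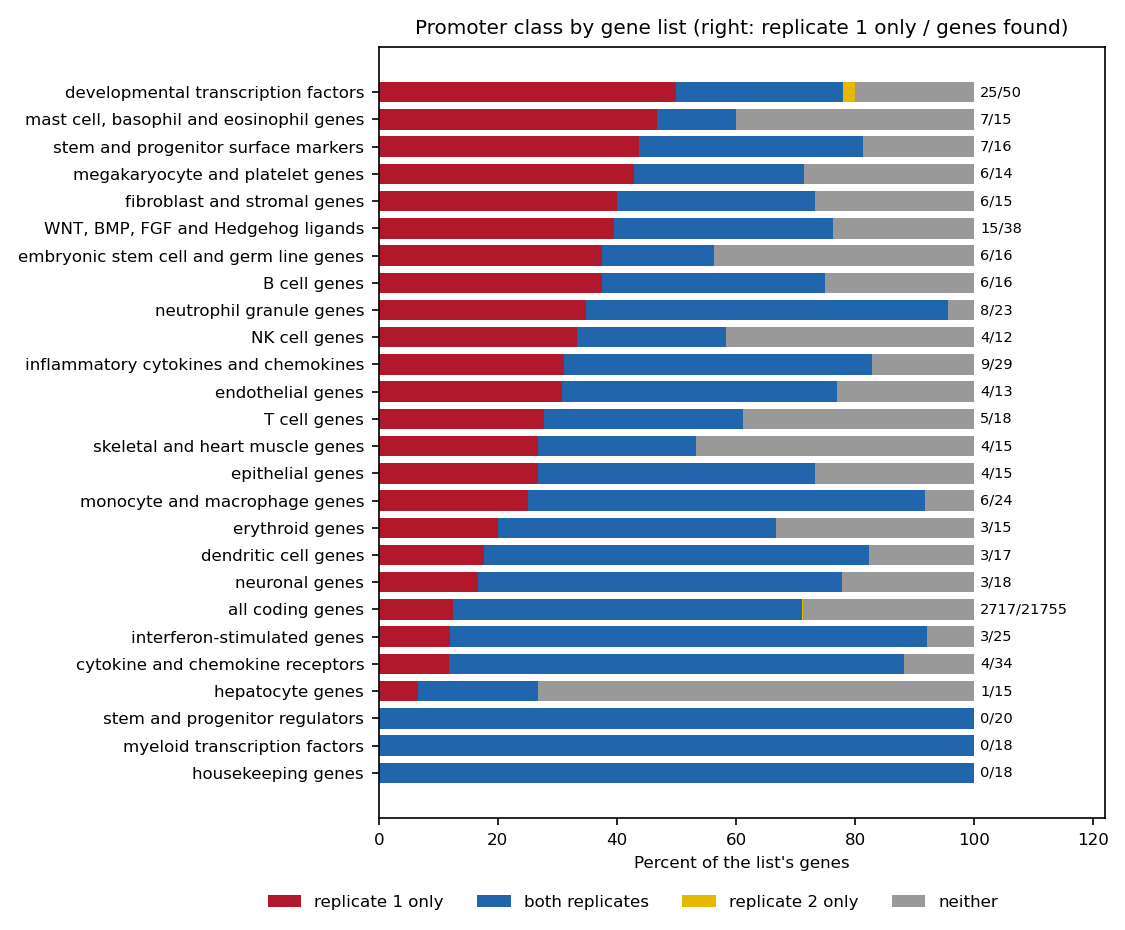
Bars give the percent of each list's genes whose promoters had a peak in replicate 1 only, in both replicates, in replicate 2 only or in neither, and the fraction on the right gives the number in replicate 1 only of the genes found. Developmental transcription factors are at the top with 25 of 50, and the myeloid factor, stem and progenitor regulator and housekeeping lists at the bottom with 0.

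Immune signalling genes were read beside the 12.5% of all coding genes. Of 29 inflammatory cytokine and chemokine genes 9 were selected (31.0%): Il27 scored 123, Cxcl9 101, Csf2 (GM-CSF) 100, Cxcl16 93, Il12a 91, Cxcl3 85, Il1a 83, Ifnb1 (interferon beta) 80 and Ccl22 62. Of 34 cytokine and chemokine receptors 4 were selected (11.8%), with Il2rg, the common gamma chain, highest at 121, a share close to that of all coding genes. The difference between the cytokine and receptor shares was not tested. Interferon-stimulated genes had 3 of 25, a share also close to it, with Ifi204 at 117, Gbp2 at 110 and Isg15 at 104. The strongest peak of each of these 3 held an IRF word. Over all selected promoters the IRF share was 2.17% of strongest peaks, near the 2.11% of all replicate 1 peaks. Interferon-stimulated promoters open in both were not compared.

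**Figure D2:**
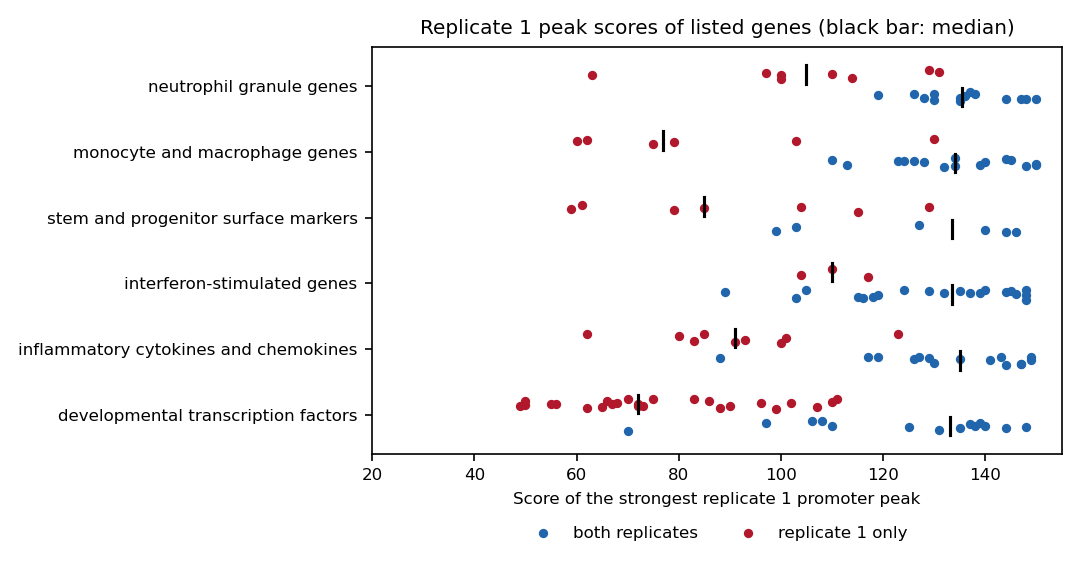
Each point is the score of the strongest replicate 1 promoter peak of 1 gene, red for promoters open in replicate 1 only and blue for both, in 6 lists, with black bars at the medians. Selected neutrophil granule genes have a median of 105, and selected developmental factors a median of 72 with none above 111.

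Developmental transcription factors had more selected genes than any other of the 25 lists. Of 50 transcription factor genes of embryonic patterning, 25 were selected, 14 had a peak in both lists and 10 in neither. Their strongest peaks scored 49 to 111 with a median of 72, near the 67 of all selected promoters, but they had a median of 4 peaks against 2, and 21 of the 25 were CpG-rich. Tbx2 scored 111, Irx5 110, Foxa1 107, Dlx2 102 and Neurog2 99. Of 38 WNT, BMP, FGF and Hedgehog ligand genes 15 were selected (39.5%), led by Wnt6 at 119, Wnt10b at 115 and Gdf11 at 104. Developmental genes such as these are known in many cell types as targets of Polycomb repression, which was not measured here.

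The Hox genes pattern the body axis, and their A cluster is active in many leukemias. They had 18 of 39 selected (46.2%, beside 12.5% of all coding genes). The A cluster had 7 of 11 promoters open in both, among them Hoxa9 (148 in replicate 1 and 69 in replicate 2) and Hoxa7 (148 and 85). Hoxa5 (114), Hoxa13 (97) and Hoxa6 (74) were its selected genes. The B cluster had 6 of 10 selected, with scores of 53 to 91, and the C cluster 5 of 9, with 52 to 93. In the D cluster 4 of 9 were selected, Hoxd11 (101), Hoxd13 (95), Hoxd8 (85) and Hoxd9 (68), and no promoter was open in both. The strongest peaks of Hoxa13, Hoxb1, Hoxb6, Hoxb9, Hoxc8, Hoxc11, Hoxc12, Hoxd8 and Hoxd13 were in coding exons. The hotspot −log10 q was at the ceiling for Hoxa5, Hoxa13, Hoxb13, Hoxc9 and Hoxd9. It was lowest for Hoxb7 and Hoxc11 (1.70) and Hoxc12 (1.90). Neighbouring Hox genes lie close together, so a peak can fall in more than 1 window. Over all selected genes, 125 peaks (2.27%) served 2 or more selected promoters.

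The strongest peaks of selected promoters lay farther from annotated starts. Their centres were 193 bp from the nearest start at the median, against 60 bp for promoters open in both, and 37.8% against 66.6% were within 100 bp. Selected peaks were upstream of their start in 54.3% of cases, against 71.6%. They were in coding exons in 12.5%, against 3.39%, and in introns in 26.5%, against 14.9%. A start over 1 kb inside the gene was used in 20.9%, against 13.4%, although selected genes had fewer annotated starts (a median of 3 against 5). Only 85 selected genes (3.13%) had the start of another coding gene on the opposite strand within 1 kb, against 18.2% of those open in both. A promoter and another element near or within the gene cannot be told apart from peak positions alone.

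**Figure D3:**
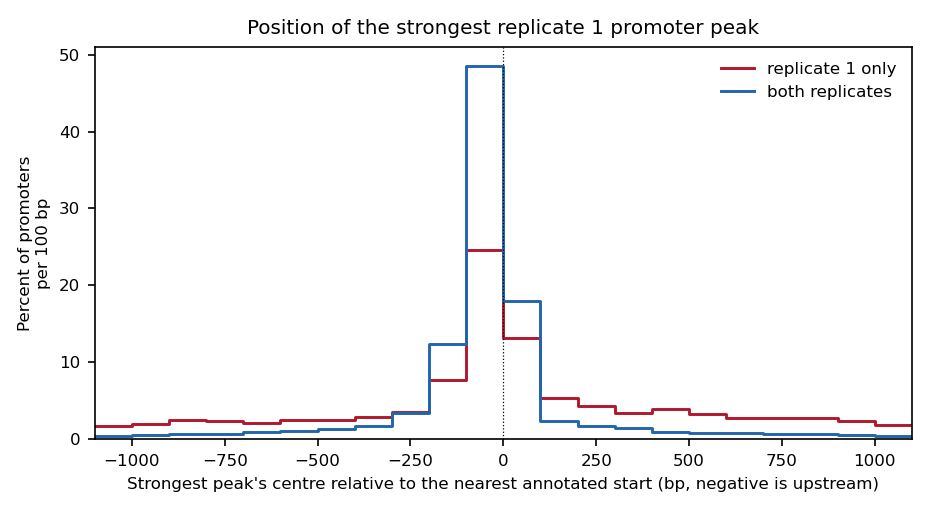
Lines give the percent of promoters whose strongest replicate 1 peak is centred in each 100 bp interval around the nearest annotated start, for replicate 1 only and for both replicates. The interval just upstream of the start holds 24.6% of the selected promoters and 48.6% of those open in both.

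The sequence around selected peaks was poorer in CpG. Over 500 bp around the peak centre the median GC content was 54.4%, against 62.0% for promoters open in both, and the ratio of observed to expected CpG was 0.390 against 0.781. Counting as CpG-rich a window with at least 50% GC and a ratio of at least 0.6, 863 of the 2717 (31.8%) were CpG-rich and 1854 CpG-poor. Of all CpG-poor promoters with a replicate 1 peak 38.2% (36.8 to 39.5) had none in replicate 2, against 8.13% (7.62 to 8.66) of CpG-rich ones. Scores differ between these classes, but the order was the same at equal score: at 100 to 109 the share was 42.6% (37.3 to 48.0) of CpG-poor and 19.6% (14.9 to 25.5) of CpG-rich promoters, and at 120 to 129 it was 16.3% (13.2 to 19.9) and 1.32% (0.608 to 2.86).

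**Figure D4:**
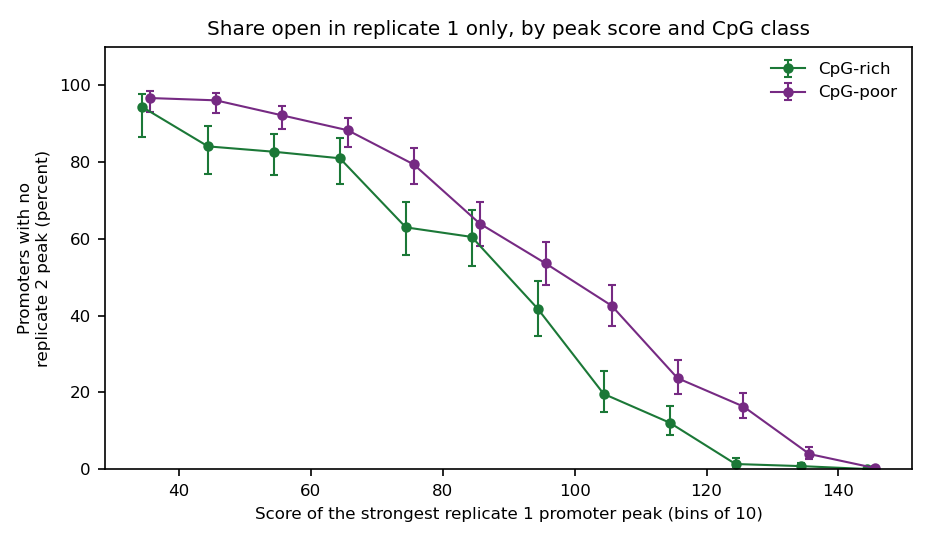
Points give the percent of promoters with a replicate 1 peak that had none in replicate 2, by the score of the strongest replicate 1 peak in bins of 10, for CpG-rich and CpG-poor promoters, with 95% Wilson intervals. Both curves fall with score, and the CpG-poor points lie above the CpG-rich ones in each bin, with intervals that overlap in several.

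The CpG-rich and CpG-poor selected promoters had the same median score, 67, and differed in shape. CpG-rich ones lay in hotspots 441 bp wide at the median against 282 bp, had 5 or more peaks in 11.1% against 6.31%, and were within 100 bp of a start in 47.4% against 33.3%. CpG-poor ones were at internal starts in 24.6% against 13.0% and reached a score of 100 in 17.4% against 10.5%.

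Motif words were searched on both strands of the 150 bp windows of the 2669 distinct strongest peaks. Words of CpG-rich promoters were less frequent than at promoters open in both: KLF/SP (GGGCGGG) in 15.5% against 38.0%, NFY in 10.6% against 22.5%, NRF1 (GCGCA, any base, GCGC) in 1.01% against 6.40%, YY1 (AAGATGGCG) in 0.112% against 1.89% and an ETS word (CCGGAAGT) in 0.899% against 6.28%. At equal score the NFY order turned in 3 of 5 bins: selected minus both was 1.59 percentage points at scores of 40 to 59, 1.85 at 60 to 79 and 5.74 from 100 to under 120, but -1.83 at 80 to 99 and -3.75 from 120 to under 140. The other gaps narrowed at scores of 80 to under 120 within CpG class, a split chosen after the values had been seen. In CpG-poor peaks KLF/SP was in 10.3% against 12.4%, NRF1 0.748% against 0.745%, YY1 0% against 0.149% and CCGGAAGT 1.87% against 1.49%. In CpG-rich peaks KLF/SP was in 36.7% against 46.9%, NRF1 2.02% against 5.50%, YY1 0.806% against 1.20% and CCGGAAGT 1.21% against 1.89%. PU.1-type words (AAGGAAGTG, AGGGAAGTG, GAGGAAGTG or GGGGAAGTG) were in 5.84% against 3.33%, RUNX words in 2.17% against 1.10% and AP-1 words (TGACTCA or TGAGTCA) in 3.71% against 2.42%. Among all 236109 replicate 1 peaks the PU.1-type share was 7.23%, RUNX 4.03% and AP-1 6.10%, all higher than at the selected promoters. Within CpG-poor peaks these 3 shares lay within each other's intervals at selected promoters and at those open in both: 7.73% (6.59 to 9.05) against 7.49% (6.58 to 8.51) for PU.1-type, 3.07% against 3.09% for RUNX and 4.99% against 5.37% for AP-1 words.

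The CTCF motif, bound by the insulator protein CTCF, was rarer at selected promoters in CpG-poor sequence. It was in 1.37% (0.930 to 2.02) of 1824 selected peaks and 3.95% (3.30 to 4.73) of 2884 peaks at promoters open in both, beside 2.85% of all replicate 1 peaks. At scores of 80 to under 120, where both classes have many peaks, the shares were 1.12% (0.515 to 2.42; 6 of 535) and 10.9% (8.74 to 13.5; 73 of 671). The REST word TCAGCACC, part of the site of a repressor of neuronal genes, went the same way there, at 1.12% against 4.17% (2.90 to 5.96). PU.1-type words had the opposite order, at 9.91% (7.65 to 12.7) against 6.26% (4.66 to 8.35), with overlapping intervals. This score range and the split by CpG were chosen after the values had been seen.

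**Figure D5:**
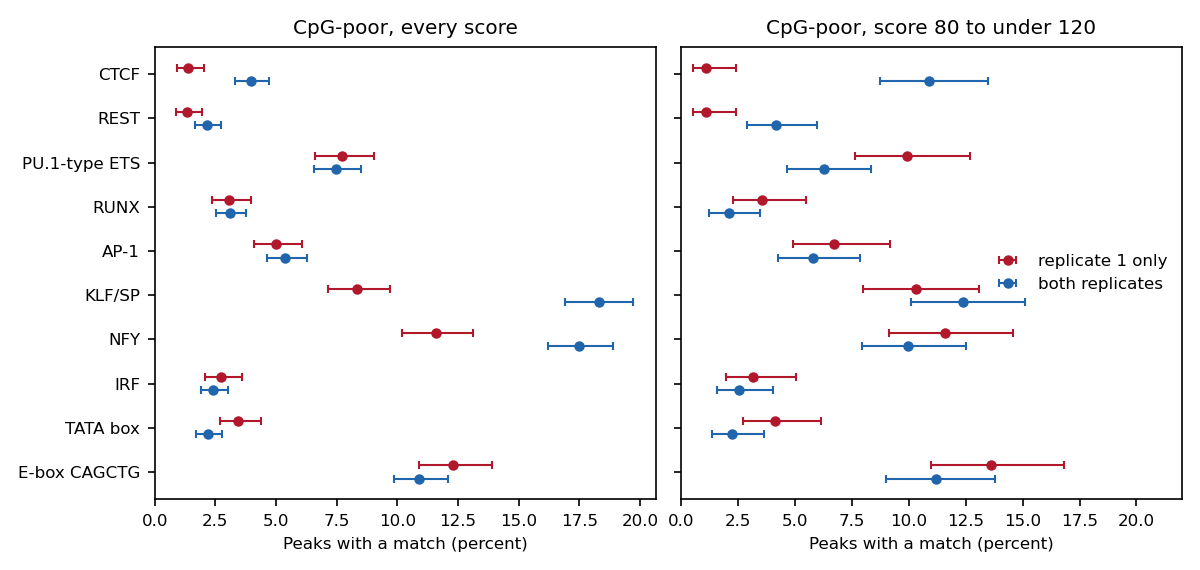
Points give the percent of CpG-poor strongest peaks with a match to each of 10 motifs, with 95% Wilson intervals, for promoters open in replicate 1 only (red) and in both (blue), over every score on the left and at scores of 80 to under 120 on the right. On the right the CTCF shares are 1.12% and 10.9%, and most other pairs of intervals overlap.

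The X chromosome had the highest share of replicate 1 promoters without a replicate 2 peak. It was 28.1% (24.2 to 32.3; 131 of 467), against 17.2% (16.6 to 17.8) on the autosomes, where single chromosomes ranged from 14.1% to 20.8%. The median score of the strongest promoter peak was 133 on X and 143 on the autosomes. Below a score of 130 the shares at equal score were close: 90.4% and 91.7% at 20 to 59, 70.2% and 67.3% at 60 to 99, and 17.9% and 18.1% at 100 to 129. At 130 to 150, which held 249 of the 467 promoters on X, they were 0.803% (0.221 to 2.88) and 0.325% (0.232 to 0.456). Among promoters open in both, the median strongest replicate 1 score was 142 on X and 145 on the autosomes. The median strongest replicate 2 score of those promoters was 55 on X and 76 on the autosomes. The cause was not tested.

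Gene families differed in the share selected, beside the 12.5% of all coding genes, and in score, beside the median of 67 over all selected promoters. Of 1135 olfactory receptor genes 77 were selected (6.78%), with a median score of 50. Most, 1039, had a peak in neither list. Of the olfactory receptor promoters with a replicate 1 peak, 82.8% had none in replicate 2, against 17.6% over all coding genes. The clustered protocadherin genes, which encode neuronal adhesion proteins, had 21 of 57 (36.8%), with a median of 39, and the potassium channel genes 27 of 94 (28.7%), with a median of 56. Of 33 interleukin genes 13 were selected (39.4%), at a higher median of 88 and a range of 44 to 127. These differences were not tested. Olfactory receptor and protocadherin genes have close copies, and how the authors placed reads that fit several copies is not stated.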

How the data were processed

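DNase-seq peaks and hotspots deposited for 2 biological replicates of mouse AML cells were used; per the file headers and sample text files, each list came from 1 mm10 alignment of the pooled technical libraries. The peak value is a score deposited by the authors in the signal column, with no stated scaling, and the hotspot value is a deposited −log10 q with a ceiling of 100. Not given in the sources used here: the caller, its settings and the depth.

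Peaks with repeated coordinates (46 in replicate 1 and 5 in replicate 2) were counted once. Promoters were windows of 1000 bp either side of every transcript start of protein-coding genes in GENCODE M21. Sequence was read from RefSeq GRCm38.p6, whose chromosomes were at least as long as the last peak end on each. Scripts used Python 3.11.15 with pandas 2.3.3 and numpy 2.4.6. The interval code was tested on simulated intervals. With 1 list per replicate no test between replicates was possible, and shares carry 95% Wilson intervals for counting error only.

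The genes named are the 12 with the highest promoter scores, the 10 with the most promoter peaks, listed blood genes and up to 5 per other list (more where a list is given whole), the Hox genes, and 5 on each side of the 1 kb limit, of which 1 is not reported here. The members and lists were chosen with earlier results of these data known. Azu2, Ahsp and Mx2 were not found as coding genes in the annotation. Alternatives were other windows and start sets, hotspots for peaks, score limits, equal list lengths and score bins.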

Additional observations from a re-analysis of the deposited data

How the results depend on the processing

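The share of coding genes open only in replicate 1 (12.5%) stayed between 12.1% and 12.9% with a 500 bp window, the annotated gene start, coding transcripts only, replicate 2 hotspots, repeated entries kept or the peak centre required inside. It was 13.0% with a 2.5 kb window, 5.01% with replicate 1 peaks above the median score and 1.77% at equal list length. The 2.5 kb window shared 2202 genes with the 2717 (81.0% of them and 77.6% of its own). Median GC was 56.6% with 500 bp and 55.4% at the gene start, and peaks within 100 bp of a start made up 47.7%, 31.7% and, above the median score, 41.9%, where the median score was 94. Against promoters open in both, the GC difference of -7.60 percentage points was -3.60, -1.80, -5.60 and -10.0 in the score bins of 20 from 60 to 79 upward. The difference in CpG-rich peaks, -43.3 points, was -28.2 at 40 to 59 and then -17.4, -7.79, -22.6 and -48.0. The cause was not tested. Motif differences that changed sign, in percentage points, were RUNX (1.07 to -0.0158 in CpG-poor peaks) and AP-1 (1.29 to -0.976 at 60 to 79, -0.274 at 80 to 99 and -0.385 in CpG-poor peaks). NFY went from -11.8 to 1.59 at 40 to 59, 1.85 at 60 to 79, 5.74 from 100 to under 120 and 1.60 in CpG-poor peaks of 80 to under 120. REST went from 0.0831 to -0.789, -4.78, -4.47 and -1.87 in the first 4 score bins, to -0.834 in CpG-poor peaks and to -3.05 in those of 80 to under 120. The CTCF difference was negative in all 5 score bins, from -0.837 to -7.16. The splits by CpG were chosen after seeing the data. Of 75 counts of listed genes under other windows or hotspots, 68 were within 1.5 times the count given. Leaving out a replicate was not possible, since each replicate has 1 pooled list and the selection needs both. The depth behind the lists is unknown, so absence from the replicate 2 list says only that no peak was called.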

Other observations

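Selected promoters also occurred in runs of neighbouring coding genes. The longest was 7 genes on chromosome X from Cysltr1 to Itm2a, with a median best score of 43, which includes the G protein-coupled receptor genes Lpar4, P2ry10 and Gpr174. A run of 6 on chromosome 7 held Cd177, Ceacam10, Lypd4 and Dmrtc2 with Gm4763 and Gm9844, at a median of 89. Runs of 4 included the interferon-inducible genes Ifi207, Ifi204, Ifi211 and Mndal (median 73), the signal-regulatory genes Sirpb1a, Sirpb1b and Sirpb1c with Gm5150 (median 75.5), Pllp with the chemokine genes Ccl22, Cx3cl1 and Ccl17 (median 86.5), Ly6g6c, Mpig6b, Ly6g6e and Ly6g6d (median 112), and the developmental factors Nkx2-4, Nkx2-2, Pax1 and Foxa2 (median 72). How many such runs the share of selected genes alone would give was not tested. Several runs are of gene copies that resemble each other.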
